A study of Caenorhabditis elegans with 6 samples.

Results

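Small RNAs recovered with the nuclear Argonaute NRDE-3 were set against the total small RNAs of the same worm strain, eri-1(mg366);GFP::NRDE-3, at the L3 larval stage. These were 2 of the 6 libraries of the series, chosen as the immunoprecipitate (IP) and the total library of the strain with no susi mutation. The other 4 libraries were the same pair from susi-2(ust49) and from susi-3(ust51), and were used only to show where the eri-1 strain differed from them. All 6 carried eri-1(mg366) and the tagged NRDE-3. The series asked how antisense siRNAs against ribosomal RNA (rRNA) arise. The pair described here bears on which RNAs go with NRDE-3 when the siRNAs it usually takes from the ERGO-1 pathway are absent.

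Argonaute proteins hold a small RNA and use it to find a complementary transcript. NRDE-3 acts in the nuclei of somatic cells, where it binds secondary siRNAs, which RNA-dependent RNA polymerases copy from a target and which therefore lie antisense to it. In worms with a working ERI-1, many of these secondary siRNAs follow from primary siRNAs bound to the Argonaute ERGO-1, and the loss of ERI-1 removes that source. Other worm Argonautes hold other classes: PRG-1 holds the 21U-RNAs (piRNAs), ALG-1 and ALG-2 hold microRNAs, and HRDE-1 and the WAGO proteins hold germline siRNAs against transposons and other silenced genes.

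Both groups were whole L3 larvae of the eri-1(mg366);GFP::NRDE-3 genotype, labelled 15 °C on OP50 bacteria. For the IP, larvae were sonicated, the lysate was pre-cleared and FLAG::GFP::NRDE-3 was recovered with anti-FLAG M2. For the total library, larvae were dounced directly in TRIzol. The total library was thus not the input of the IP lysate, and the extraction and the IP step cannot be told apart. No IP from worms without tagged NRDE-3 was analysed here, so RNA that stays on the beads without NRDE-3 cannot be separated from RNA held by NRDE-3. Each group had 1 library. No difference below has a replicate check or a p-value, and the 95% intervals cover counting error only, for reads without molecular identifiers. Counts were summed over the features of each gene, so a read that matches several features can be counted more than once. Counts and shares are therefore not numbers of reads, and where reads are counted again the intervals are too narrow. Total counts were 10755494 in the IP and 10512324 in the total library, within the series' range of 9122066 to 10755494, so 1 count was 0.0930 CPM (counts scaled to a library of 1000000) in the IP and 0.0951 CPM in the total library. As a check of the labels, nrde-3, the tagged gene, had 55056 sense counts in the IP and 442 in the total library, and 5508 antisense counts in the IP against 3292.

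Antisense counts, the strand on which siRNAs lie, took a smaller share of the IP than of the total library. They were 11.8% of the IP and 25.97% of the total library, a ratio of 0.454 (95% interval 0.453 to 0.455). With rRNA features left out, the shares were 6.10% in the IP and 21.8% in the total library, a ratio of 0.280 (0.279 to 0.280). Noncoding RNA genes that overlap a structural or microRNA gene held antisense shares of 1.55% in the IP and 5.89% in the total library. As described below, such counts cannot be told apart from reads of the overlapped RNA, so not all antisense counts need be siRNAs. Protein-coding genes differed by the most points of any class, with antisense shares of 4.15% in the IP and 12.97% in the total library. Their antisense ratio was 0.320 (0.319 to 0.321) of all counts, and it turned to 1.08 when both libraries were scaled to their microRNA counts. Antisense counts on transposons were 18692 in the IP and 234958 in the total library, a 12.9-fold lower share. This ratio was 0.0778 of all counts and 0.263 when scaled to microRNA counts. Long intergenic noncoding RNAs (lincRNAs) had antisense counts of 2819 in the IP and 27606 in the total library, a ratio of 0.0998 (0.0960 to 0.104). The lincRNA gene linc-29 alone held 255 of these in the IP and 17496 in the total library.

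Antisense counts on the most abundant structural RNAs went the other way. Antisense counts on tRNA genes were 1964 in the IP and 310 in the total library, a ratio of 6.19 (5.49 to 7.003). Some tRNA genes overlap other genes, and there the counts cannot be told apart from reads of the overlapped gene. R11B5.t2, which overlaps tbc-12, had 88 in the IP and 1 in the total library. R04D3.t2, with no overlap found, had 56 in the IP and 0 in the total library. On microRNA genes antisense counts were 944 in the IP and 184 in the total library, a ratio of 5.01 (4.28 to 5.90). Of these, mir-5592-1 alone held 431 in the IP and 40 in the total library. In all, 7 rRNA-class features held almost all their counts on the antisense strand in the total library. These were F31C3.13, F31C3.14, F31C3.15, F31C3.16 and 3 copies of the 5S gene. By those counts, and not by an annotated strand, they were taken to lie opposite to the rRNA. Their antisense column was therefore read as rRNA fragments. With those features turned round, rRNA antisense counts were 5057 in the IP and 729 in the total library, a ratio of 6.78 (6.27 to 7.34). Antisense counts on the 26S rRNA gene were 3147 in the IP and 220 in the total library, a ratio of 13.98 (12.2 to 16.1). The 18S gene had 1012 in the IP and 97 in the total library, a ratio of 10.2 (8.27 to 12.7). The 2 smaller rRNAs did not follow in the same way. The 5.8S gene had 10 antisense counts in the IP and 43 in the total library. The 13 forward copies of the 5S gene had 185 in the IP and 227 in the total library. Its 3 copies that were turned round had 143 in the IP and 95 in the total library, a ratio of 1.47 (1.13 to 1.93). On the 26S gene, antisense counts were 0.0686% of the gene's counts in the IP and 0.0102% in the total library. Antisense counts on small nuclear RNAs, small nucleolar RNAs and spliced leader RNAs were lower in the IP by all counts, with ratios of 0.467, 0.353 and 0.155, of which scaling to microRNA counts turned the first to 1.58 and the second to 1.19.

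On the sense strand the IP held more rRNA and mRNA fragments and less of the small RNAs that belong to other Argonautes. Sense rRNA fragments as deposited were 52.7% of the IP and 29.0% of the total library, a ratio of 1.81. With the opposite features turned round, they were 58.3% of the IP and 33.2% of the total library, a ratio of 1.76. The 26S rRNA ratio was 2.07 and the 18S ratio 1.28, while 5.8S and 5S fragments had ratios of 0.702 and 0.459. Sense fragments of protein-coding genes were 25.3% of the IP and 11.08% of the total library, a ratio of 2.29 (2.28 to 2.29) that stayed between 1.92 and 7.74 under the other scalings. 21U-RNAs had 2313 counts in the IP and 135687 in the total library, a 60.02-fold lower share. Mitochondrial transcripts had 33141 counts in the IP and 388991 in the total library, a 12.01-fold lower share. Sense tRNA fragments were 0.237% of the IP and 1.34% of the total library, a ratio of 0.176 (0.174 to 0.179), so that the strands of the tRNA genes moved in opposite directions.

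**Figure D1:**
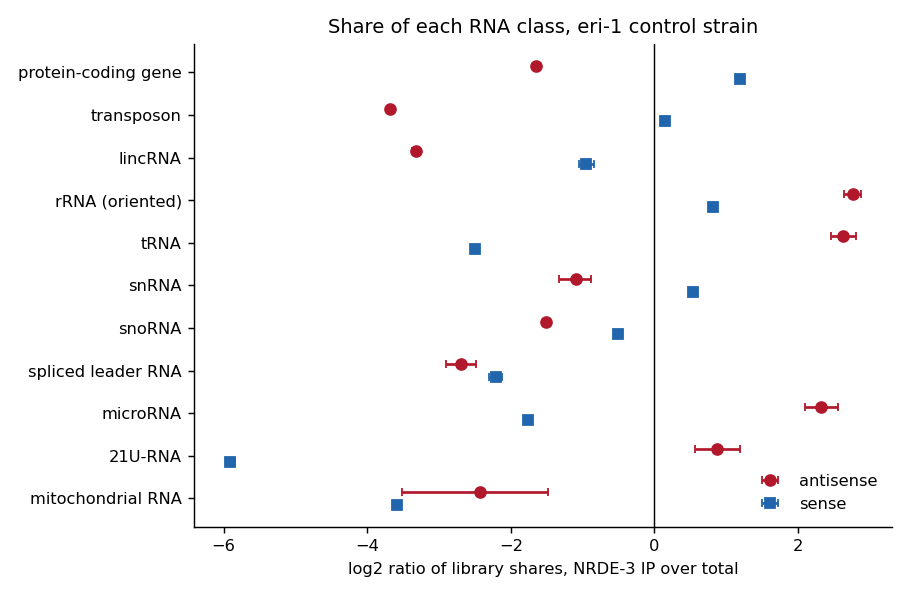
Log2 ratio of the share of library counts, NRDE-3 IP over total, for each RNA class in the eri-1 control strain, with antisense counts as circles and sense counts as squares. Bars are 95% counting intervals, and the rRNA features taken to lie opposite to the rRNA are turned round. Antisense counts on transposons sit at 12.9-fold lower and 21U-RNAs at 60.02-fold lower in the IP, while antisense counts on rRNA, tRNA and microRNA genes sit above 0.

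Gene by gene, 5281 genes had at least 50 antisense counts over both libraries. Ratios are given as log2 of (CPM + 1) in the IP over (CPM + 1) in the total library, which understates the change of low genes. In the IP, 627 genes (11.9%) stood at least 2-fold higher, whereas 3739 genes (70.8%) stood at least 2-fold lower. The median gene was at −1.82. Scaling by TMM, which centres the genes, moved the median by 1.75 and gave 1438 genes higher and 1293 lower, so 52.7% of the called genes were higher in place of 14.4%. Relative to the median of all genes, 1383 genes were at least 2-fold above and 1195 at least 2-fold below. Of the 627 higher genes, 100 had no antisense count in the total library. The IP spread its protein-coding antisense counts over more genes, 17442 in the IP and 13128 in the total library. The top 10 genes held 19.1% of them in the IP and 10.6% in the total library, the top 100 held 40.2% in the IP and 38.4% in the total library, and the top 500 held 57.8% in the IP and 64.6% in the total library.

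The 8 highest ratios among genes with at least 200 antisense counts were genes with many antisense counts in the IP and almost none in the total library. cup-16, named for defects in uptake by coelomocytes, had 14459 antisense counts in the IP and 0 in the total library. Its share was 4711-fold higher against a floor of 3 counts, and the exact interval of the ratio began at 3831. irld-51, which encodes a protein with the L domain of insulin and EGF receptors, had 5739 in the IP and 0 in the total library. Its share was 1870-fold higher against that floor, with an interval from 1520. These 2 genes had no antisense read in the total library at all.

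Of the others, Y56A3A.6 had 10601 antisense counts in the IP and 20 in the total library, a ratio of 518 (335 to 848). K08E7.5 had 10244 in the IP and 8 in the total library, a ratio of 1252 (635 to 2900). C25G6.4 had 6412 in the IP and 1 in the total library, a ratio of 6267 (1124 to 247573). The remaining 3 were smaller but as one-sided. T22F7.3 had 6238 antisense counts in the IP and 4 in the total library, a ratio of 1524 (595 to 5596). H02F09.3 had 3680 in the IP and 2 in the total library, a ratio of 1798 (497 to 14856). cam-1, which encodes a receptor tyrosine kinase of the Ror family that binds Wnt, had 2491 in the IP and 1 in the total library, a ratio of 2435 (437 to 96203). Sense counts on the same genes were far fewer, for example 45 in the IP and 11 in the total library on cup-16, and genes that overlap them had at most 34 sense counts in the IP (tsp-9, beside 18 in the total library). The tables give no position within a gene, so whether these counts come from 1 sequence or from many is not known here.

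**Figure D2:**
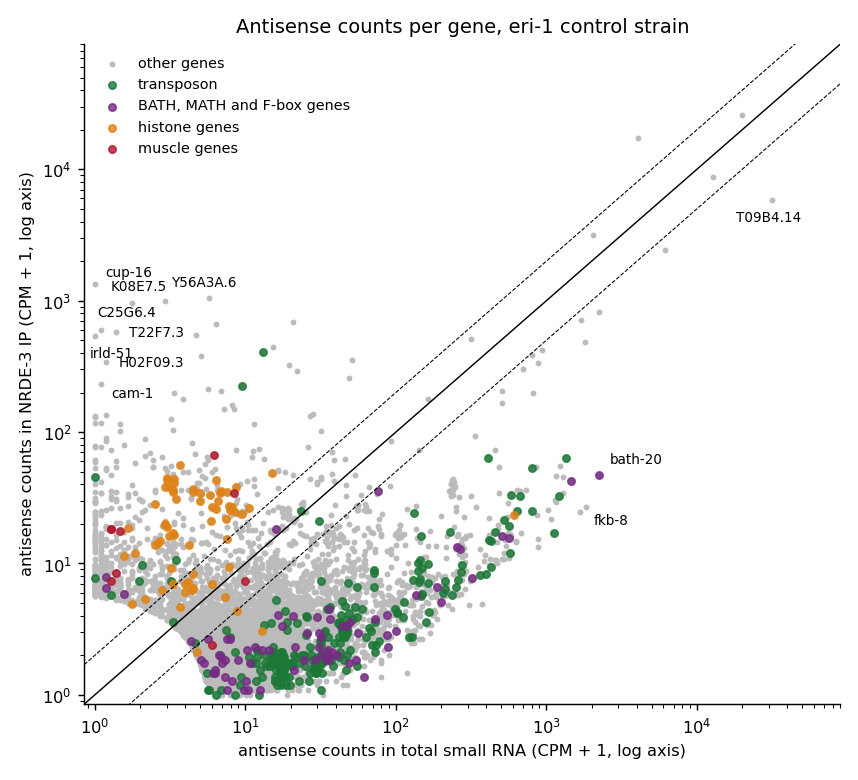
Antisense counts per gene in the NRDE-3 IP (vertical, CPM + 1, log axis) against the total library (horizontal, CPM + 1, log axis), for the 5281 genes with at least 50 antisense counts. The solid line marks equal CPM and the dashed lines a 2-fold difference. The 8 highest genes lie along the left edge, histone and muscle genes mostly above the lines, and transposons, BATH, MATH and F-box genes mostly below them.

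The 8 lowest ratios belonged to genes whose antisense siRNAs were plentiful in the total library. fkb-8, a gene of the FK506-binding protein family, had 281 antisense counts in the IP and 19403 in the total library, a 70.6-fold lower share (62.8 to 79.8). linc-29, a lincRNA, had 255 in the IP and 17496 in the total library. The transposon Y102A5D.1 had 173 in the IP and 11824 in the total library, a 69.9-fold lower share. The other 5 were C28C12.1, W05F2.5, Y105E8A.28, AC8.12 and T15B7.15. C28C12.1 had the lowest ratio, with 5 antisense counts in the IP and 1245 in the total library, a 255-fold lower share (109 to 786). AC8.12 had 41 in the IP and 3232 in the total library. All 8 had some antisense counts in the IP, and their shares were between 69.9-fold and 255-fold lower there.

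The 6 genes with most antisense counts in the IP were features that overlap abundant RNAs, and so were 5 of the 6 in the total library, where the other was bath-20, described below. F31C3.14, F31C3.15, F31C3.16 and F31C3.13, the features taken to lie opposite to the rRNA, had between 34008 and 280492 antisense counts in the IP and between 21452 and 210784 in the total library. T09B4.14, a noncoding RNA opposite to mir-1, had 62528 in the IP and 332910 in the total library, near the 64695 in the IP and 348858 in the total library of the mir-1 hairpin. F16A11.6, opposite to mir-71, had 25958 in the IP and 64521 in the total library, near the 26923 in the IP and 65746 in the total library of that hairpin. The counts on such features cannot be told apart from reads of the rRNA or microRNA itself. Noncoding RNA genes that overlap a structural or microRNA gene held 166951 of the class's antisense counts in the IP and 619196 in the total library. Those that overlap none had 10730 in the IP and 13256 in the total library, a ratio of 0.791 (0.771 to 0.812). With all genes left out that overlap such genes, 566 genes were higher and 3438 lower.

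The counts for the lists below stand beside 11.9% higher and 70.8% lower among all 5281 genes, and their medians beside −1.82. They hold for the members with at least 50 antisense counts, and with a minimum of 1 count the median of all genes was 0.09. Of 18 listed WAGO and HRDE-1 targets, 9 were measured. None was past 2-fold upward and 7 were past it downward, near the share of all genes, with a median of −4.37, or −2.55 relative to the median of all genes. With a minimum of 1 count the median was −1.46 over 16 genes. bath-20 had 497 antisense counts in the IP and 23524 in the total library, bath-45 had 447 in the IP and 15304 in the total library, and F15D4.5 had 475 in the IP and 13510 in the total library. Y47H10A.5, which is known as the target of the RDE-1-bound microRNA mir-243, had 382 in the IP and 7674 in the total library. C55C3.3 had 460 in the IP and 272 in the total library, a log2 ratio of 0.70.

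BATH and MATH genes, whose products carry the MATH domain of ubiquitin ligase adaptors, and F-box genes, which encode another family of ubiquitin ligase adaptors, were mostly lower among the members measured, where 70.8% of all genes were lower. Of 73 BATH and MATH genes, 23 were measured, 1 higher and 21 lower, with a median of −3.21. Of 322 F-box genes, 51 were measured, 2 higher and 48 lower, with a median of −3.38. With a minimum of 1 count the median was −0.90 over 70 BATH and MATH genes and −0.09 over 294 F-box genes, the second of which stood at −0.18 relative to all genes. fbxb-14 had 156 antisense counts in the IP and 5931 in the total library, and fbxa-67 had 72 in the IP and 3379 in the total library. Of 256 transposon genes, 9 were higher and 243 lower, with a median of −3.67. T27C5.9, the transposon with most antisense counts, had 678 in the IP and 14206 in the total library. The WAGO and HRDE-1 list, the BATH and MATH list and the F-box list stayed below the median of all genes under each scaling tried. The WAGO and HRDE-1 list and the BATH and MATH list share members, among them bath-20 and bath-45, so they are not separate measurements.

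Most ERGO-1 targets in the tables had few antisense counts in either library, and 2 had many in the total library. Of 25 names, 19 were found and 5 had at least 50 antisense counts, and the 19 together had 363 antisense counts in the IP and 3953 in the total library. C18D4.6 had 50 in the IP and 1886 in the total library, and R06C1.4 had 49 in the IP and 1803 in the total library, so these 2 held most of the list's counts in the total library. E01G4.5 was the measured ERGO-1 target that was higher in the IP, with 71 in the IP and 2 in the total library. The other 14 found had at most 33 antisense counts in the IP and 28 in the total library.

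Germline genes and the small RNA machinery had antisense medians nearer to that of all genes. Of 33 germline genes measured, 1 was higher and 28 lower, with a median of −2.25, or −0.43 relative to all genes. glh-4, a germline helicase related to Vasa, had 157 antisense counts in the IP and 1436 in the total library. glh-1, its relative, had 660 in the IP and 473 in the total library. Of 13 genes of the nuclear RNAi pathway, all 13 were lower by all counts, with a median of −2.46, or −0.65 relative to all genes. Under TMM scaling the median of this list was −0.45. nrde-2, which acts with NRDE-3 on nascent transcripts, had 81 in the IP and 1188 in the total library. Of 22 genes of siRNA amplification, 1 was higher and 18 lower, with a median of −2.17, or −0.35 relative to all genes, where 11.9% were higher and 70.8% lower. ego-1, an RNA-dependent RNA polymerase of the germline, had 43 in the IP and 587 in the total library.

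Of 14 Argonaute genes, 1 was higher and 11 lower, near the 11.9% and 70.8% of all genes, with a median of −2.02 that TMM scaling turned to 0.01. prg-1, the piRNA Argonaute, had 147 antisense counts in the IP and 1506 in the total library. hrde-1, the nuclear Argonaute of the germline, had 85 in the IP and 744 in the total library. alg-1, a microRNA Argonaute, was the exception, with 388 in the IP and 40 in the total library. Of 36 genes for rRNA processing, 2 were higher and 33 lower, with a median of −1.91, or −0.09 relative to all genes, which DESeq2 size factors turned to 0.04. rpoa-1, the large subunit of RNA polymerase I, was one of the 2, with 1407 antisense counts in the IP and 270 in the total library, a ratio of 5.09 (4.47 to 5.82).

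With features summed, histone, muscle and intestinal genes were the lists with a median above 0 among their measured members. With only the largest feature of each gene, the medians were 2.16 over 66 histone genes and 1.56 over 3 muscle genes. Only 1 intestinal gene was then measured, at −1.34. Of 72 histone genes, 66 were measured, of which 52 were higher and 4 lower, beside 11.9% higher and 70.8% lower among all genes, and their median was 2.16, or 3.98 above that of all genes. With a minimum of 1 count it was 1.92 over 72 genes. F54E12.5, a core histone gene, had 594 antisense counts in the IP and 28 in the total library, a ratio of 20.7 (14.2 to 31.5). B0035.10, also a histone gene, had 510 in the IP and 148 in the total library. Many histone genes are near-identical copies that can share reads, so these 66 are not 66 separate measurements. The 4 lower genes were his-24, his-74, his-37 and his-72. his-24, a linker histone, had 241 in the IP and 6418 in the total library, and his-72, a variant of histone H3, had 36 in the IP and 82 in the total library.

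Of 30 muscle genes, 9 were measured, 7 higher and 1 lower, with a median of 2.63. A gene with few counts in the total library was measured only where the IP held enough, and with a minimum of 1 count the median of all 30 was 1.00, or 0.91 above that of all genes. unc-54, the major myosin heavy chain of body wall muscle, had 714 antisense counts in the IP and 55 in the total library, a ratio of 12.7 (9.64 to 17.0). ttn-1, a titin, had 361 in the IP and 78 in the total library. unc-22, twitchin, had 187 in the IP and 3 in the total library, a ratio of 60.9 (20.5 to 298). unc-52, the perlecan of the muscle's basement membrane, had 186 in the IP and 3 in the total library, and unc-89, obscurin, had 180 in the IP and 5 in the total library. act-2, an actin gene, was lower, with 15 in the IP and 53 in the total library. The sense strand of unc-54 also held more counts in the IP, 9863 beside 2271 in the total library, and its part in the antisense counts was not tested.

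The other tissue lists had few measured genes. Of 36 intestinal genes found, 6 were measured, 3 higher and 2 lower, with a median of 1.04, and with a minimum of 1 count the median was 0.20 over 35 genes. Among them, vit-2, a yolk protein gene, had 55 antisense counts in the IP and 3 in the total library, and erm-1, which links membrane and actin, had 31 in the IP and 125 in the total library. Of 14 collagen genes, 3 were higher and 10 lower, and they lay far apart. col-84 had 364 antisense counts in the IP and 0 in the total library, and col-19 had 302 in the IP and 0 in the total library. col-111 had 13 in the IP and 860 in the total library, and col-71 had 60 in the IP and 1265 in the total library. Of 30 ribosomal protein genes, 5 were higher and 4 lower, with a median of −0.19 that every other scaling turned positive, from 0.39 without rRNA counts to 1.7001 with DESeq2 size factors. rps-7 had 131 in the IP and 17 in the total library, and rpl-11.2 had 16 in the IP and 132 in the total library. Of 7 neuronal genes, none was higher and 4 were lower, with a median of −1.80 that TMM scaling turned to 0.06. Of 3 sperm genes, 1 was lower, spe-47, with 11 in the IP and 426 in the total library.

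**Figure D3:**
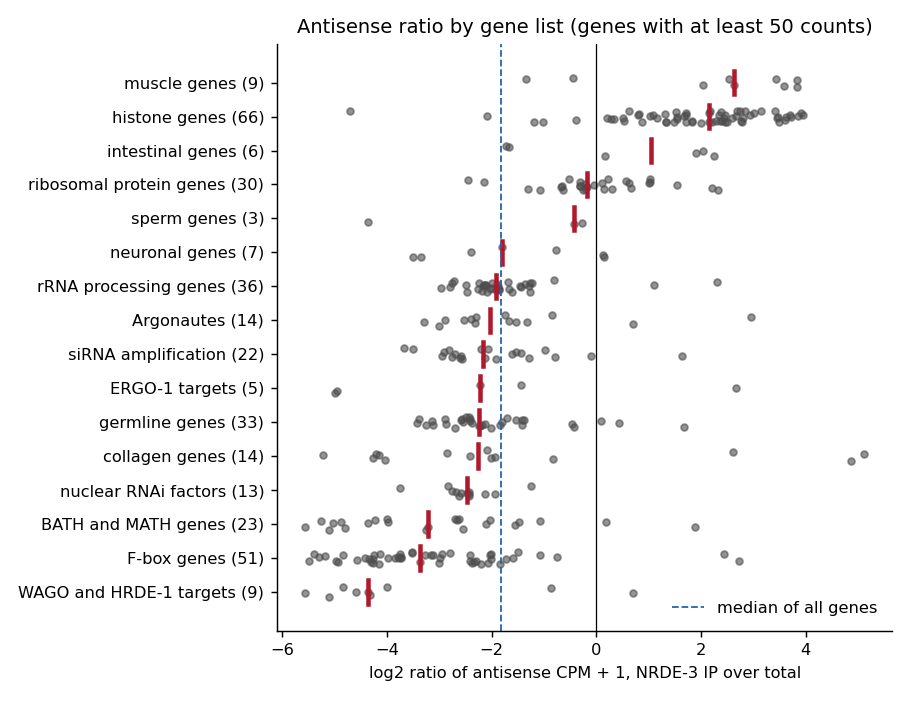
Log2 ratio of antisense CPM + 1, NRDE-3 IP over total, for each measured gene of each list (points), with the list's median (thick bar), the number of measured genes in brackets and the median of all genes (dashed line, −1.82). The measured muscle and histone genes have medians of 2.63 and 2.16, and WAGO and HRDE-1 targets have −4.37.

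Sense fragments were counted for 9193 genes, of which 4016 (43.7%) were 2-fold or more higher in the IP and 1580 (17.2%) were 2-fold or more lower, with a median of 0.78. TMM scaling moved the median by −0.77 and gave 2208 higher and 2469 lower, so the share of higher genes among those called went to 47.2% in place of 71.8%. Of 7720 protein-coding genes, 3931 were higher and 464 lower. Sense ratios did not separate the genes by their antisense ratio. The 393 antisense-higher genes measured on the sense strand had a median sense log2 ratio of 1.21, the 2344 antisense-lower genes 1.26, and all 3444 genes measured on both strands 1.25.

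A few protein-coding genes had sense fragments almost only in the IP. mob-4, a kinase activator of the MOB family, had 12967 sense counts in the IP and 19 in the total library, a ratio of 667 (427 to 1108). sdc-2, which starts dosage compensation on the X chromosomes of hermaphrodites, had 21245 in the IP and 89 in the total library, a ratio of 233 (190 to 291). fcd-2, the worm FANCD2 of DNA crosslink repair, had 11224 in the IP and 27 in the total library, a ratio of 406 (279 to 617). col-140, a collagen gene, had 4442 in the IP and 4 in the total library. R06C7.2 had 2119 in the IP and 1 in the total library. Y47D7A.15 had 1788 in the IP and 0 in the total library, 583-fold higher against the floor of 3 counts, with an interval from 473. Antisense counts on these 6 were few, at most 56 in the IP and 94 in the total library.

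The lowest sense ratios were ZK250.13, anr-35, Y51H4A.16, T16G12.10, T05A1.5 and F07B7.8. anr-35, listed as an antisense RNA gene, had 102 sense counts in the IP and 4904 in the total library. It overlaps F37H8.2, which had 307 antisense counts in the IP and 12117 in the total library, so its sense counts and the siRNAs of F37H8.2 cannot be told apart. ZK250.13 had 28 sense counts in the IP and 1855 in the total library, a 67.8-fold lower share (46.7 to 102).

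Sense fragments of collagen, germline and muscle genes were mostly higher in the IP, beside 43.7% higher and 17.2% lower among all genes and a median of 0.78. Of 113 collagen genes, 93 were higher and 1 lower, with a median of 2.31. col-71 had 9651 sense counts in the IP and 52 in the total library, while its antisense counts were lower in the IP. Of 37 germline genes, 34 were higher and none lower, with a median of 2.39. Of 30 muscle genes, 29 were higher and none lower, with a median of 2.096, and unc-22 had 8820 sense counts in the IP and 1537 in the total library. Under TMM scaling these medians were 1.48 for collagen, 1.58 for germline and 1.26 for muscle genes. Of 79 ribosomal protein genes, 24 were higher and 4 lower, both below the shares of all genes, with a median of 0.40 that TMM scaling turned to −0.48. Of 33 intestinal genes, 8 were higher and 3 lower, also below those shares, with a median of −0.09 that scaling to microRNA counts turned to 1.499. asp-1, an aspartyl protease of the gut, had 11572 sense counts in the IP and 9641 in the total library.

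microRNAs as a class were 7.49% of the IP and 25.4% of the total library, a ratio of 0.295 (0.295 to 0.296). Of 224 microRNA genes, 69 had at least 1000 sense counts, of which 6 were higher and 50 lower, with a median of −1.62. mir-1, the muscle microRNA, had 128206 sense counts in the IP and 696176 in the total library, a ratio of 0.180. These counts are summed over its features. The hairpin held 64695 in the IP and 348858 in the total library, and the feature T09B4.11b held 63500 and 347312. Where such features hold the same reads, the microRNA counts and the class shares exceed the reads. mir-70 had 25485 in the IP and 315304 in the total library, a ratio of 0.0790. mir-48, of the let-7 family, had 96160 in the IP and 177850 in the total library, a ratio of 0.528. These 3 ratios differed by more than their counting intervals.

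The extremes among microRNAs were far wider than counting error. mir-243, which is known to enter RDE-1 and to set off siRNAs against Y47H10A.5, had 47 sense counts in the IP and 10136 in the total library, a 221-fold lower share (166 to 300.5). mir-62 had 26 in the IP and 1403 in the total library, and mir-355 had 36 in the IP and 1581 in the total library. On the other side, mir-87 had 2683 in the IP and 207 in the total library, a ratio of 12.7 (10.99 to 14.7). mir-790 had 7206 in the IP and 795 in the total library, a ratio of 8.86 (8.23 to 9.54). mir-52 had 7942 in the IP and 1032 in the total library, a ratio of 7.52 (7.05 to 8.03).

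Families of microRNAs share a seed, the stretch that pairs with targets, yet did not always move together. All 7 let-7 family genes were below 0, 6 of them at least 2-fold lower, and under scaling to microRNA counts 6 were still below 0 and mir-48 was above. let-7, which times the larval-to-adult transition, had 14986 sense counts in the IP and 103538 in the total library. All 4 measured genes of the mir-58 family were at least 2-fold lower, with a median of −1.22 that scaling to microRNA counts turned to 0.53. The mir-51 family was split into 3 higher and 3 lower genes by all counts, and under scaling to microRNA counts all 6 were above 0, 3 of them at least 2-fold. mir-52, mir-53 and mir-54 were higher, with mir-53 at 724 in the IP and 144 in the total library and mir-54 at 5170 in the IP and 2243 in the total library. mir-51, mir-55 and mir-56 were lower, with mir-55 at 17616 in the IP and 49151 in the total library. In the mir-35 family, which acts mainly in embryos, mir-37 was higher, with 3002 in the IP and 1411 in the total library, and 5 of the other 7 were at least 2-fold lower. Under scaling to microRNA counts 2 of the 8 were at least 2-fold higher and 1 lower, and the family's median of −2.01 went to −0.36. Of the lin-4 family, lin-4, the founding heterochronic microRNA, had 1720 in the IP and 2957 in the total library, and mir-237 had 13331 in the IP and 10935 in the total library. Near-identical family members can share reads, and how the counting split such reads is not given in the sources used here.

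**Figure D4:**
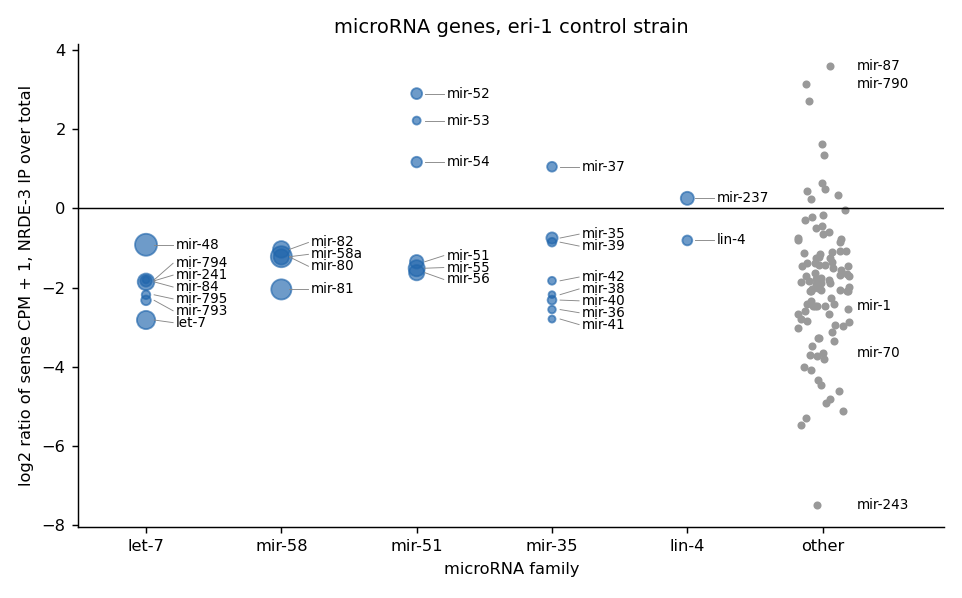
Log2 ratio of sense CPM + 1, NRDE-3 IP over total, for microRNA genes with at least 50 sense counts, grouped by family, with the area of the points in the named families growing with the mean level. By all counts, mir-52, mir-53 and mir-54 of the mir-51 family lie above 0 and the other 3 below it, where scaling to microRNA counts puts all 6 above 0, and mir-243 is the lowest of all at −7.49.

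All 547 measured 21U-RNAs were at least 2-fold lower in the IP. 21ur-3421 had 13 counts in the IP and 2383 in the total library, a 188-fold lower share. 21ur-1681 had 15 in the IP and 2205 in the total library, 21ur-6881 had 13 in the IP and 1454 in the total library, and 21ur-1793 had 18 in the IP and 1368 in the total library. Of 35 mitochondrial genes measured on the sense strand, 34 were at least 2-fold lower, and MTCE.26 had 4910 in the IP and 72504 in the total library.

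The same comparison in the other genotypes shares no library with this pair. Genes low in both susi libraries fell under the minimum of 50 counts, so shares are over all genes called in the eri-1 control pair, with those not measured counted as not called. Of the 627 genes higher in the eri-1 control pair, 489 (78.0%) passed 2-fold upward in the susi-2 pair and 102 were not measured there, beside 19.4% higher among all 5281 genes. In the susi-3 pair 355 (56.6%) passed it and 191 were not measured, beside 8.27% higher among all 5281 genes. In all 3 pairs 347 genes (55.3% of the 627) were higher. Among all 5281 genes, the share higher in both susi pairs was not counted and can be at most the 8.27% of the susi-3 pair. Many of the 627 reached the minimum of 50 counts mainly through the IP. Their median was 118 antisense counts in the eri-1 control IP and 8 in its total library. Of the 3739 lower genes, 1557 (41.6%) passed 2-fold downward in the susi-2 pair and 560 were not measured, beside 31.5% lower among all 5281 genes. In the susi-3 pair 2425 (64.9%) were lower and 992 were not measured, beside 49.5% lower among all 5281 genes. The median gene stood at −1.82 in the eri-1 control pair, at −0.09 in the susi-2 pair and at −1.72 in the susi-3 pair. Protein-coding antisense ratios were 0.320 in the eri-1 control pair, 1.101 in the susi-2 pair and 0.458 in the susi-3 pair. lincRNA antisense ratios were 0.0998 in the eri-1 control pair, 1.82 in the susi-2 pair and 1.03 in the susi-3 pair. linc-29, which held most of the class in the eri-1 control total library, had ratios of 0.0142, 0.0178 and 0.00615 in the same order. The higher class ratios of the susi pairs thus came from other lincRNA genes.

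Among the 8 highest genes, some kept their antisense counts in the other IPs and some did not. cup-16 had 14459 antisense counts in the eri-1 control IP, 7871 in the susi-2 IP and 10702 in the susi-3 IP, and 0 in each of the 3 total libraries. cam-1 had 2491 in the eri-1 control IP, 2031 in the susi-2 IP and 1216 in the susi-3 IP, and 1 or 2 in the total libraries. H02F09.3 had 3680 in the eri-1 control IP, 4141 in the susi-2 IP and 874 in the susi-3 IP. By contrast, C25G6.4 had 6412 in the eri-1 control IP, 32 in the susi-2 IP and 23 in the susi-3 IP. irld-51 had 5739 in the eri-1 control IP, 34 in the susi-2 IP and 39 in the susi-3 IP. K08E7.5, T22F7.3 and Y56A3A.6 likewise had 10244, 6238 and 10601 in the eri-1 control IP, but 182, 68 and 72 in the susi-2 IP and 99, 35 and 61 in the susi-3 IP. These 5 genes thus had their high counts in 1 of 3 IP libraries, and whether that is a feature of the genotype or of that library was not tested. The 8 lowest genes had log2 ratios of −3.80 or less in each of the 3 pairs. fkb-8, for example, had a log2 ratio of −6.09 in the eri-1 control pair, −5.69 in the susi-2 pair and −7.17 in the susi-3 pair.

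**Figure D5:**
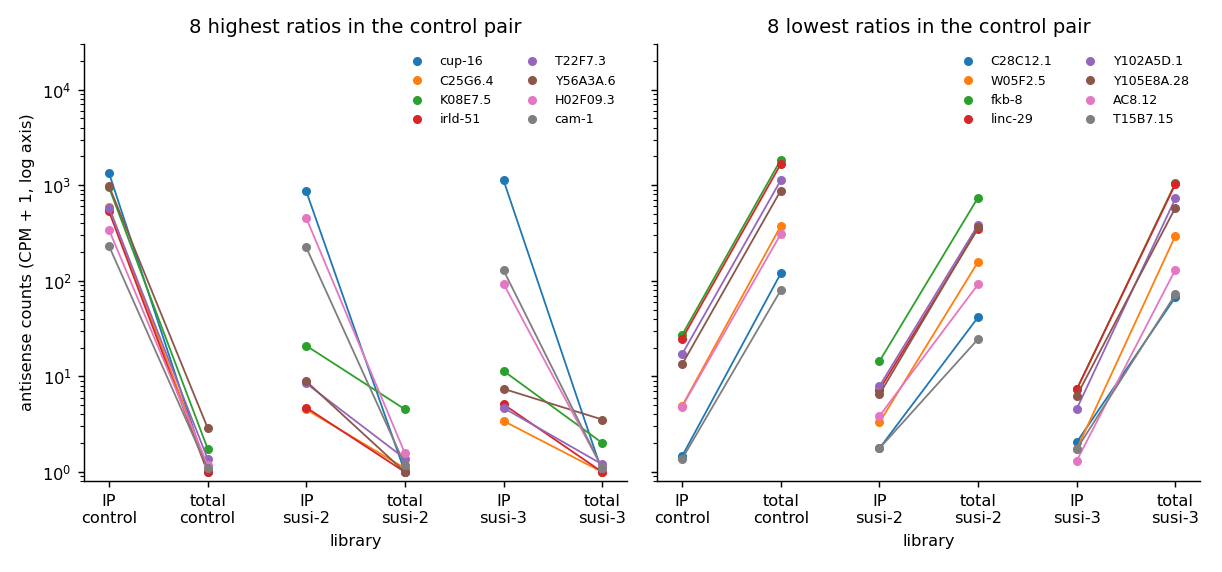
Antisense counts (CPM + 1, log axis) of the 8 genes with the highest (left) and the 8 with the lowest (right) ratio in the eri-1 control pair, in all 6 libraries, with the IP left of the total library of each genotype. Lines join the IP and the total library of 1 genotype. cup-16, H02F09.3 and cam-1 are high in all 3 IPs, the other 5 genes on the left in the eri-1 control IP, and the 8 genes on the right are low in all 3 IPs.

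The pairs differed in the direction of unc-54, while the other ratios below kept theirs. unc-54 had 714 antisense counts in the eri-1 control IP and 55 in its total library, but 98 and 159 in the susi-2 pair and 54 and 136 in the susi-3 pair, in the order IP and total. Antisense counts on unc-22 were higher in the IP in all 3 genotypes, with log2 ratios of 3.84, 4.67 and 3.91 in the eri-1 control, susi-2 and susi-3 pairs. The microRNA share ratio was 0.295 in the eri-1 control pair, 0.152 in the susi-2 pair and 0.146 in the susi-3 pair, so the eri-1 control IP kept more microRNA than the IPs of the mutants. 21U-RNA ratios were 0.0167, 0.0247 and 0.0149 in the eri-1 control, susi-2 and susi-3 pairs, and transposon antisense ratios were 0.0778, 0.199 and 0.0638 in the same order.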

How the data were processed

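Each library's table gives, per the file headers, the raw count of reads on the sense and on the antisense strand of each of 56377 features, with its class. The authors aligned with Bowtie2, per the submitters' processing notes. The sources used here do not give its settings, the genome build or how reads with several matches were counted. RNA of 17 to 30 nt was treated with phosphatase and then kinase with 1 mM ATP, per the labels' protocols, which lets triphosphate siRNAs be cloned.

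Features were summed to 45510 genes, of which 43622 were in the name table. A read on several features of a gene can be summed more than once, also in the library totals. In these 2 libraries 2 blank cells were read as 0, and 3 features without a gene were left out (64 counts in the IP, 101 in the total library). Shares have exact Clopper-Pearson 95% intervals, and ratios of shares the exact conditional interval. Per gene, log2 ratios of CPM + 1 were taken where both libraries held at least 50 counts in sum, and counted past 2-fold. A count of 0 allows up to 2.79e-05% of the IP and 2.85e-05% of the total library (3 counts). No test was run. The calculation was tested on simulated data. Alternatives used edgeR 4.0.16 (TMM) and DESeq2 1.42.0 (size factors) in R 4.3.3, for scaling only. Overlapping genes were looked up by name in RefSeq's WBcel235 gene table.

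Members, comparisons and the 22 gene lists were chosen with earlier results of these data known. The genes named were, among genes of no structural or small RNA class with 200 counts or more, the 8 highest and 8 lowest antisense ratios and the 6 highest and 6 lowest sense ratios; and, among all, the 6 genes with most antisense counts, the leading and extreme microRNAs, the leading 21U-RNAs, and the 3 most covered members of each list or class. Other list members, T27C5.9, mir-5592-1 and genes that overlap a named one were picked after their values were seen.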

Additional observations from a re-analysis of the deposited data

Results flagged for a closer look

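mir-37, of the mir-35 family, had 3002 sense counts in the NRDE-3 IP and 1411 in the total library of the eri-1 control strain, a log2 ratio of 1.05. It drew attention because, by all counts, the other genotypes went the opposite way by about the same amount. In susi-2 it had 553 counts in the IP and 1369 in the total library (−1.096). In susi-3 it had 857 in the IP and 1915 in the total library (−1.101). Each pair is 1 library against 1, and the difference between the genotypes was not tested. The microRNA class as a whole had a ratio of 0.295 in the eri-1 control pair, 0.152 in susi-2 and 0.146 in susi-3. Relative to the class, mir-37 was thus higher in the IP in each pair. The part of the class in the difference between the genotypes was not tested.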

How the results depend on the processing

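Scaling set how many genes passed 2-fold. On the antisense strand 627 were higher and 3739 lower. TMM scaling gave 1438 and 1293, DESeq2 size factors 1503 and 1197, microRNA counts 1115 and 1784, and same-strand counts 954 higher. A minimum of 1 count gave 1707 higher, a minimum of 200 gave 225 and 1438, both strands summed gave 3077 higher, and a 4-fold threshold gave 2327 lower. On the sense strand, 4016 higher and 1580 lower became 2208 and 2469 (TMM), 2137 and 2520 (DESeq2), 7102 and 924 (microRNA counts), 2012 and 684 (minimum of 200) and 1717 and 1038 (4-fold). A pseudocount of 5 CPM gave 2574 higher, a minimum of 1 count 2980 lower and both strands summed 3321 lower. Class ratios without rRNA counts, by strand and by microRNA counts were 0.0267, 0.0140 and 0.0564 for 21U-RNA sense, 0.513, 0.705 and 1.08 for protein-coding antisense, 3.67, 1.92 and 7.74 for protein-coding sense, and 0.125, 0.171 and 0.263 for transposon antisense. MicroRNA sense was 0.474 without rRNA counts and 0.248 by strand. As deposited, rRNA sense was 1.52 by strand and 6.14 by microRNA counts. Antisense rRNA was 6.78 when oriented, an alternative added after the data were seen, against 1.37 as deposited. Besides the reversals given above, F16A11.6 turned round (0.96 by TMM, 1.08 by DESeq2, 0.41 by microRNA counts). By microRNA counts, so did mir-57 (0.68), mir-58a (0.54) and mir-71 (0.31). Of genes lower in the control pair, 76.3% were lower in the susi-2 pair under TMM. By all counts it was 41.6%, beside 31.5% among all 5281 genes. The share among all genes under TMM is not given here. Scaling also changes which genes are called lower, so these shares cannot be compared as agreement between the pairs. The cause of these shifts was not tested. No paired analysis was possible because each group has 1 library, and no replicate could be left out. Genes with few counts in both libraries are limited by depth: a total of 50 counts is 4.65 CPM or less in the IP.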
